A study of Mus musculus with 48 samples.

Results

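The genes of the proteasome were followed through ribosome-protected fragments (RPFs) and cytoplasmic RNA in the livers of 24 mice. Members were taken by symbol alone, as every gene whose mouse symbol starts with Psm, a letter from a to g and a number, which gave 51 of the 20622 genes in the RNA tables. All 51 also had a transcript among the 16269 counted in RPFs. No measured value entered this choice. By textbook role the 51 members were 7 alpha subunits and 7 constitutive beta subunits of the 20S core, 3 immunoproteasome subunits, 2 tissue-specific core subunits, 6 ATPases and 3 other subunits of the 19S base, 8 subunits of the 19S lid, 7 assembly chaperones, 6 activators and inhibitors, and 2 genes named as interaction partners of a subunit without being subunits.

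The proteasome is the barrel-shaped protease that degrades proteins tagged with ubiquitin in the cytosol and nucleus. The alpha rings of its 20S core gate the barrel and the beta rings hold the active sites, where *Psmb5* carries the chymotrypsin-like, *Psmb6* the caspase-like and *Psmb7* the trypsin-like activity. Interferons induce *Psmb8*, *Psmb9* and *Psmb10*, which take the places of *Psmb5*, *Psmb6* and *Psmb7* in the immunoproteasome and change the peptides handed to major histocompatibility complex (MHC) class I molecules. The 19S regulatory particle caps the core, with ubiquitin receptors and an ATPase ring that unfolds the substrate in the base and an enzyme that removes ubiquitin chains in the lid. *Psmg1* to *Psmg4* help to build the core and *Psmd5*, *Psmd9* and *Psmd10* the base. *Psme1* and *Psme2* form the interferon-induced activator PA28, *Psme3* a nuclear relative of it, and *Psme4* the activator PA200, while *Psmf1* encodes the inhibitor PI31.

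Every mouse received AAV8.TBG.Cre, an adeno-associated vector that brings Cre recombinase under the hepatocyte promoter TBG, so that controls carried the vector too. WT mice were wild type, B mice carried Ctnnb1ex3/+, whose recombined allele yields a stabilised β-catenin, M mice carried R26-LSL-MYC, a MYC transgene at the Rosa26 locus that Cre switches on, and BM mice carried both. All were males of 2 to 4 months on a mixed C57BL/6 background, with 3 mice in each of the 8 groups of genotype and day, harvested 4 or 10 days after injection. Each mouse gave 1 RPF and 1 RNA library from the same whole-liver lysate, which also holds cells that Cre did not reach. The p-values therefore rest on the spread between 3 mice, and the comparisons of B, M and BM with WT at a day share the same 3 control mice.

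The β-catenin target moved as the genotypes are labelled, *Myc* did so in RPFs but not in RNA, and the hepatocyte markers were present throughout. The RPFs of *Axin2*, a β-catenin target, lay at 2.85, 3.52 and 3.39 CPM (counts normalised to TMM-scaled library size) in WT at day 4, 18.2, 27.1 and 21.7 CPM in B and 27.6, 28.4 and 23.6 CPM in BM. Endogenous *Myc* lay at 18.3, 2.43 and 13.1 CPM in WT and 62.1, 57.5 and 61.6 CPM in M at day 4, where reads of the transgene may be counted with those of the gene. *Myc* RNA was not called against WT in any genotype at either day, with changes of 0.16 in M and -0.22 in BM at day 4 and -0.43 and 0.37 at day 10. At day 10 BM mouse 1 stood apart from BM mice 2 and 3, with *Axin2* at 26.7, 10.5 and 6.20 CPM and *Myc* at 58.0, 121 and 164 CPM, so the members called in BM at day 10 are also given without it. The summed RPF level of 6 hepatocyte markers was 71313 to 82191 CPM in WT and 34551 to 40838 CPM in BM at day 4. RPF libraries held 9742197 to 14380713 counted fragments and RNA libraries 3254141 to 6540116 estimated reads.

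The start regions of 6 members are shown because their values carry the results below, namely the immunoproteasome genes and the chaperones *Psmg1*, *Psmg3* and *Psmd9*, with no entry for *Psmg2*. Each is the 250 bases before the RefSeq start of transcription on GRCm38.p6, written 5′ to 3′ on the strand of the gene. Capitals mark matches to the letters CACGTG (an E-box, the MYC and MAX consensus), GAAANNGAA (core of the interferon-stimulated response element), TTCNNNGAA (gamma-activated sequence) or TGANNNNGC (core of the antioxidant response element, bound by *Nfe2l1* and *Nfe2l2*). *Psmb8* is at chr17:34197945-34198194, plus strand, *Psmb9* at chr17:34187331-34187580, minus strand, *Psmb10* at chr8:105938393-105938642, minus strand, *Psmg1* at chr16:95990961-95991210, minus strand, *Psmg3* at chr5:139826895-139827144, minus strand, and *Psmd9* at chr5:123227940-123228189, plus strand.
Psmb8: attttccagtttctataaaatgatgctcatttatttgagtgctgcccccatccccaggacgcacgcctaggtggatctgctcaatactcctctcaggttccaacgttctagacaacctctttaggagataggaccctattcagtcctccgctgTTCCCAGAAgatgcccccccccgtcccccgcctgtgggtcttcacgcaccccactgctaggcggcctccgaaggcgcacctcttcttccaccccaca
Psmb9: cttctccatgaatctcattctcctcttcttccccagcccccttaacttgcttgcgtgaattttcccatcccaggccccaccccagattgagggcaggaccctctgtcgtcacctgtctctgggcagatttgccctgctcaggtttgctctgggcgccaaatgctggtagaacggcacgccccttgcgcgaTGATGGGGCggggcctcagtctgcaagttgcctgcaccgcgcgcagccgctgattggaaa
Psmb10: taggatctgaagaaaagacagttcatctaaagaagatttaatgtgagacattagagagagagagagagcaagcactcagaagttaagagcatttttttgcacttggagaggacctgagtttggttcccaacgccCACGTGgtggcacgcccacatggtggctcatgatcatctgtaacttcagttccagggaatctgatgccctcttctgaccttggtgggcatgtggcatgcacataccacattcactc
Psmg1: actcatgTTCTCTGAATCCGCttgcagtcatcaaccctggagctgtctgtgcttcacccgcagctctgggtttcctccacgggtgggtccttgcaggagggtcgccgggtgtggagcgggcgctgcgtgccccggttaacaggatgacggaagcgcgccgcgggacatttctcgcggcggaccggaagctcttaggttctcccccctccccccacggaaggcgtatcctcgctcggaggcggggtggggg
Psmg3: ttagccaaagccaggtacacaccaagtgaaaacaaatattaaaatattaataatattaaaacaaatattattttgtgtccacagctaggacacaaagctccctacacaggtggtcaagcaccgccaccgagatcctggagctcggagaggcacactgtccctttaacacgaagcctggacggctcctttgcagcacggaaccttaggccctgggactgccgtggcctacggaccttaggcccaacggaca
Psmd9: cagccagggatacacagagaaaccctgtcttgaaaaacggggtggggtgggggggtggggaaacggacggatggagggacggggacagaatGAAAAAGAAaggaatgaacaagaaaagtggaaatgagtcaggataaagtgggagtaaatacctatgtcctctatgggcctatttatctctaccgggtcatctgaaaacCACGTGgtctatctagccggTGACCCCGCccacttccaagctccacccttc

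The matches in these windows were few. *Psmb8* held TTCNNNGAA 97 bases before the start, *Psmb9* held TGANNNNGC 60 bases before it, and *Psmb10* held CACGTG 116 bases before it. In *Psmg1*, TTCNNNGAA at 243 and TGANNNNGC at 238 bases before the start overlapped, and *Psmg3* held none of these letters. *Psmd9* held GAAANNGAA, CACGTG and TGANNNNGC at 159, 51 and 31 bases before the start. Over both strands, CACGTG stood in 5 of 47 windows of 43 members (*Psma4*, *Psmb10*, *Psmd9*, *Psme3* and *Psme3ip1*) and in 6.02% of 32851 RefSeq windows of that length. GAAANNGAA stood in 3 of 47 windows (*Psmb3*, *Psmd4* and *Psmd9*) and 7.13% of all, TTCNNNGAA in 2 (*Psmb8* and *Psmg1*) and 7.02%, and TGANNNNGC in 19 and 35.2%. The letters TCAAAG, the core bound by TCF and LEF factors downstream of β-catenin, stood in 4 windows (*Psma2*, *Psmb6*, *Psmd10* and *Psmf1*) and in 13.8% of all. A match is a description of the letters and not evidence of binding, and no match says only that these letters are not in the window.

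In WT liver the subunits of the 20S core had the highest median level of RPFs per length of coding sequence among the role groups. Levels between genes were compared as RPF CPM per kilobase of coding sequence at day 4. The counts leave out codons at both ends of the coding sequence and the length does not, so short members are somewhat understated. The 7 alpha subunits had a median of 206 (167 to 299) and the 7 constitutive beta subunits of 254 (177 to 382). The ATPases of the 19S base had a median of 112 (105 to 160.1), the other base subunits of 141 (89.7 to 178) and the lid of 118 (68.8 to 181). The 3 immunoproteasome subunits lay lower, at 39.9 (32.5 to 49.8), and the 7 assembly chaperones at 27.8 (9.80 to 71.0). The activators and inhibitors spread from 28.6 to 187 around a median of 68.2, with *Psme1* highest and within the range of the core. *Psmb1*, a noncatalytic beta subunit, ranked first with 382 ± 8.13 (SD, n = 3), apart from the range of the next, *Psma6* with 299 ± 21.7. Below it the order was mostly not resolved, since in 12 of 50 pairs of neighbours the ranges of the 3 mice lay apart. Summed over members, the 14 constitutive core subunits reached 3315 ± 155 and the 17 regulatory particle subunits 2105 ± 44.5 RPF CPM per kilobase (SD, n = 3). In RNA the same sums were 1596 ± 75.4 and 1249 ± 48.9 TPM, a measure of RNA per length of transcript.

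**Figure D1:**
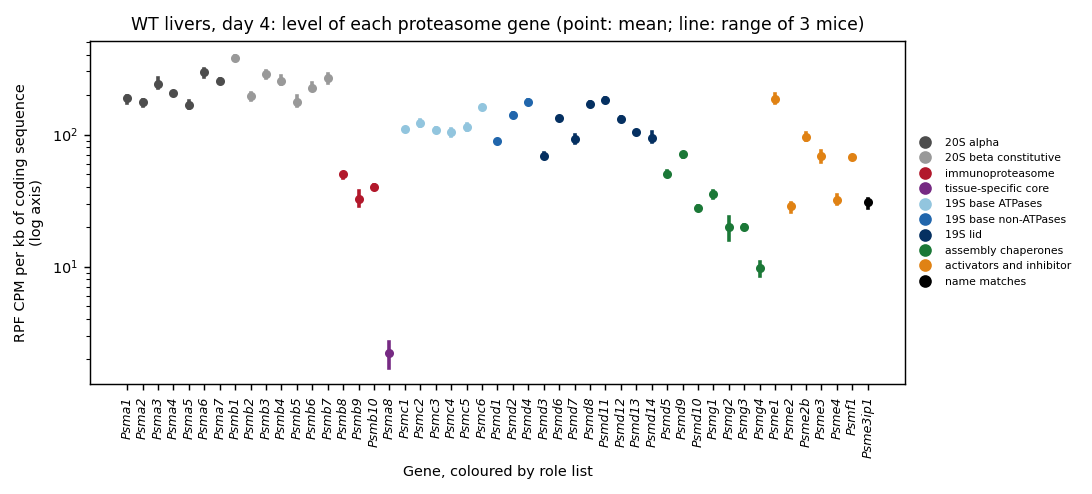
RPF CPM per kilobase of coding sequence (log axis) of each member in WT liver at day 4, grouped by role. Points are means and lines the range of the 3 mice, members under 0.5 CPM per kilobase (Psmc3ip and Psmb11) are left out, and core subunits lie highest as groups, with Psmb1 at a mean of 382 and some 19S subunits and Psme1 (187) level with the lowest of them, while the immunoproteasome subunits lie between 32.5 and 49.8.

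Changes were then tested across all genes in each comparison. A call is an adjusted p under 0.1 in the quasi-likelihood test of edgeR, adjusted by Benjamini-Hochberg over all genes tested, and changes are log2 differences between group means scaled by trimmed mean of M values (TMM). In B at day 4, 3 of 49 members tested rose and 2 fell, beside 6.21% and 6.26% of all genes tested, and scaling to library totals gave 11 higher and 1 lower. In M at day 4, 4 of 49 members tested rose and 4 fell, beside 18.5% and 14.7% of all genes tested, and scaling to library totals gave 15 higher and 1 lower. In BM at day 4, 11 of 50 members tested rose and 6 fell, beside 26.2% and 24.7% of all genes tested, and scaling to library totals gave 44 higher and 3 lower. One of these 11 was *Psmc3ip*, which passed the count filter only through the BM mice of day 4, where it is high, so that the filter set its call here and below, and 10 of the 49 others rose. The numbers of members called thus turned on the scaling, since dividing by library totals alone moved the median of all genes up by 0.11 for B, 0.21 for M and 0.42 for BM. The median change of the members turned its sign for M, from -0.082 to 0.13, and stayed above 0 for B (0.085 and 0.20) and BM. At day 10 in B, 5 of 49 members tested rose and 0 fell, beside 13.1% and 12.1% of all genes tested, and scaling to library totals gave 37 higher and 0 lower. At day 10 in M, 5 of 49 members tested rose and 1 fell, beside 10.6% and 8.8% of all genes tested, and scaling to library totals gave 16 higher and 0 lower. At day 10 in BM, 9 of 49 members tested rose and 10 fell, beside 24.5% and 22.3% of all genes tested, and scaling to library totals gave 24 higher and 2 lower. Leaving out BM mouse 1 of day 10 gave 16 higher and 12 lower members, beside 33.4% and 32.9% of all genes in that fit. These counts rest in part on single mice. In B at day 4 the 5 calls fell to 2 without WT mouse 1 and to 1 without WT mouse 3 or B mouse 2. At day 10 the 5 calls in B fell to 3 or 2 without any WT mouse or B mouse 1 or 2, and the 6 in M to 3 without WT mouse 3 or M mouse 1 or 2. The 19 calls in BM fell to 12 without WT mouse 1 or BM mouse 2 or 3 and to 11 without WT mouse 3. The shift of the median of all genes at day 10 was 0.26, 0.25 and 0.38. The median change of the members tested was 0.025 in BM at day 4 and -0.00055 at day 10, beside -0.00072 and 0.034 over all genes. With TMM scaling, members rose and fell no more often than all genes in any of these 6 comparisons. *Psmb11* was never tested and *Psmc3ip* only in BM at day 4, both for low counts. In M and BM at day 10 *Psma8* passed the filter only through those mice, where it is high, so the filter set its rises there.

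In RNA, 48 members were tested in each comparison with WT. In B at day 4, 0 rose and 0 fell beside 8.14% of all genes called in either direction, or 12 and 0 with library totals. This count of 0 from edgeR stood beside 6 members at an unadjusted p under 0.05 and 0 called by DESeq2. In M at day 4, 2 rose and 6 fell beside 23.7% of all genes called in either direction, or 27 and 0 with library totals. For BM at that day, 5 rose and 9 fell beside 41.9% of all genes called in either direction, or 40 and 2 with library totals. At day 10 in B, 4 rose and 0 fell beside 15.6% of all genes called in either direction, or 24 and 0 with library totals. In M at day 10, 4 rose and 2 fell beside 15.7% of all genes called in either direction, or 4 and 0 with library totals. For BM at day 10, 7 rose and 10 fell beside 45.7% of all genes called in either direction, or 25 and 2 with library totals. Leaving out BM mouse 1 of day 10 gave 11 higher and 13 lower there, and the share of all genes called in that fit is not reported here. The RNA counts also moved by over 1.5 times without WT mouse 2 or B mouse 1 in B and WT mouse 3 or M mouse 1 in M at day 4. At day 10 they did so without WT mouse 1 or 3 or B mouse 2 or 3 in B, any WT mouse or M mouse 1 or 2 in M, and WT mouse 1 or 3 or BM mouse 2 or 3 in BM, with ranges of 2 to 7, 1 to 6 and 9 to 24. Members called in both RPFs and RNA numbered 6 in M and 8 in BM at day 4, and 3, 4 and 11 in the 3 genotypes at day 10, and all of them moved the same way in both. The same count over all genes is not reported here, so no trait of the members can be read from it.

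**Figure D2:**
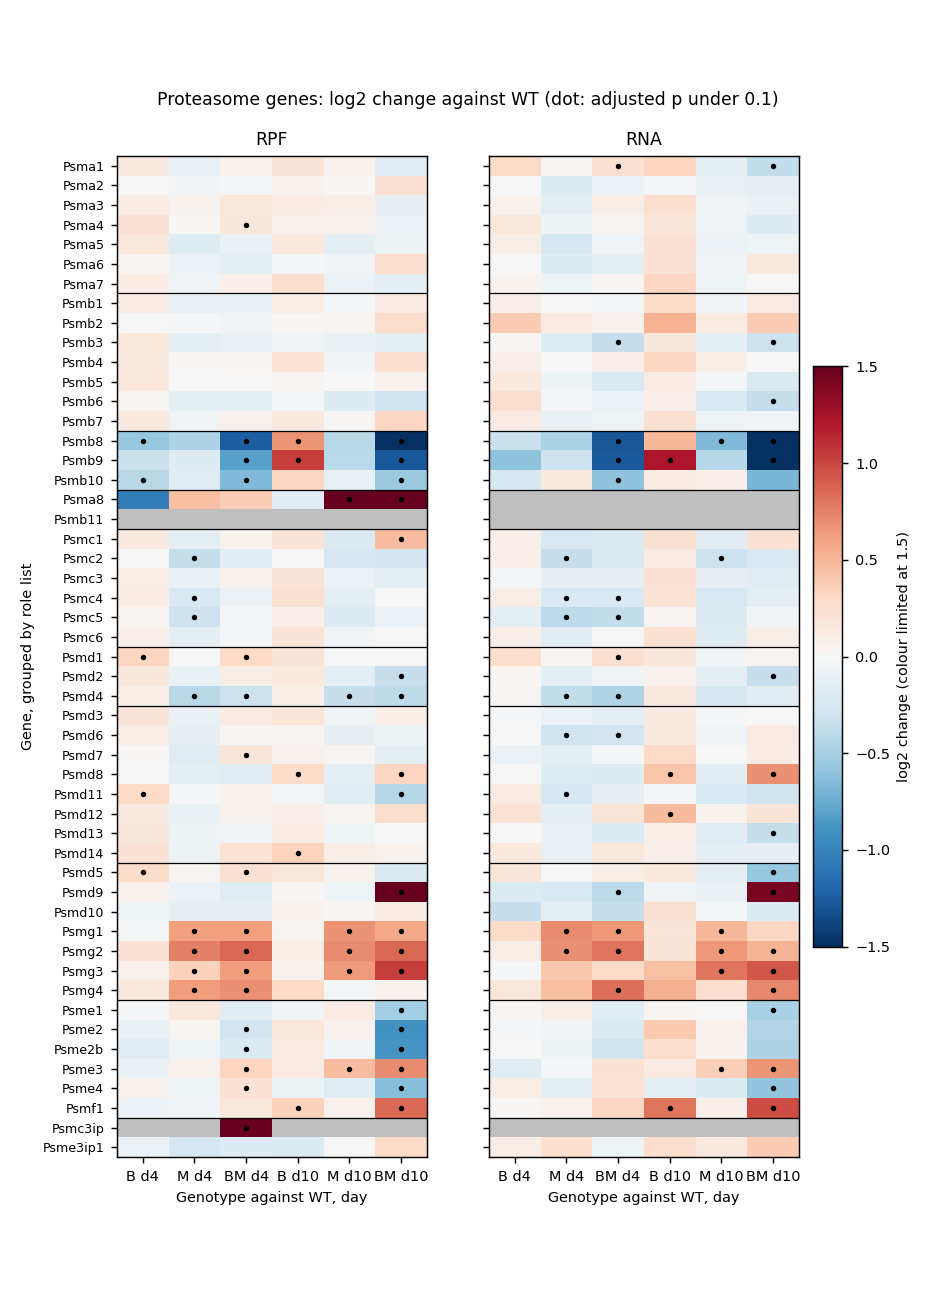
Heat maps of the log2 RPF and RNA change (TMM scaling) of each member by role in B, M and BM against WT at days 4 and 10. Red is higher and blue lower with colour limited at 1.5, a dot marks an adjusted p under 0.1 and grey a member not tested, and the immunoproteasome row block is blue in BM with Psmb8 at -1.24 and -1.58 while Psmg1 and Psmg2 are red in M and BM for RPFs, directions that held with library totals.

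The 14 constitutive subunits of the 20S core changed little in RPFs. Over the 6 comparisons with WT their RPF changes ran from -0.30 to 0.31, and 1 of 84 fits was called, where 6.21% to 26.2% of all genes rose and 6.26% to 24.7% fell in these comparisons. That call was *Psma4*, an alpha subunit, in BM at day 4 (log2 0.17 ± 0.074 SE, adjusted p = 0.0851), with 165, 164 and 156 CPM in WT and 182, 186 and 169.7 in BM. The BM mice lay above the WT mice, but the call was lost without any WT mouse or BM mouse 1 or 2, in DESeq2 and without the filter on low counts. In BM at day 10 without mouse 1, 2 of 7 alpha subunits rose and 0 fell. Of 7 constitutive beta subunits 3 rose and 1 fell there, beside 33.4% and 32.9% of all genes in that fit. In RNA 5 of 84 fits were called, with changes from -0.37 to 0.52, the latter for *Psmb2* in B at day 10 without a call, beside 8.14% to 45.7% of all genes called. The 5 were *Psma1*, higher in BM at day 4 and lower at day 10, *Psmb3*, lower in BM at both days, and *Psmb6*, lower in BM at day 10, and all but the first turned positive with library totals. With library totals the core moved up with the median of all genes, and in BM at day 4 14 rose and 0 fell of the 14, with a median of 0.41, and at day 10 7 rose and 0 fell, with a median of 0.36.

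The constitutive catalytic subunits *Psmb5*, *Psmb6* and *Psmb7* differed little between groups in RPFs. At day 4 the RPFs of *Psmb5* lay at 155, 132 and 136 CPM in WT, 153, 155 and 170.0 in B, 143, 135 and 137 in M and 139, 142 and 134 in BM. At day 10 *Psmb5* lay at 152, 133 and 126 CPM in WT, 139, 147 and 140.0 in B, 143, 133 and 132 in M and 127, 149 and 156 in BM. Each genotype overlapped WT at both days and no RPF difference was called, and at day 4 all B mice were above all M and BM mice. *Psmb6*, the beta subunit with the largest change in BM at day 4, lay at 177, 155 and 155 CPM in WT, 173, 156 and 176 in B, 152, 141 and 135 in M and 148, 143 and 144 in BM. At day 10 *Psmb6* lay at 164, 144 and 143 CPM in WT, 155, 147 and 146 in B, 132, 123 and 139 in M and 122, 122 and 126 in BM. The M and BM mice were all below the WT mice at both days, but no RPF difference was called (BM at day 4, log2 -0.14 ± 0.079 SE, adjusted p = 0.181, and day 10, log2 -0.30 ± 0.14 SE, adjusted p = 0.12), and without BM mouse 1 that of BM at day 10 was called (log2 -0.29 ± 0.12 SE, adjusted p = 0.0539). The RNA of *Psmb6* was called lower in BM at day 10 (log2 -0.36 ± 0.13 SE, adjusted p = 0.0528, or 0.046 with library totals). *Psmb7* lay at 239, 221 and 205 CPM in WT, 252, 240.4 and 249 in B, 217, 209 and 199.8 in M and 239, 226 and 219.8 in BM at day 4. At day 10 *Psmb7* lay at 196, 168 and 190.5 CPM in WT, 225, 188 and 202 in B, 188, 176 and 201 in M and 181, 250.3 and 262 in BM. At day 4 all B mice lay just above the WT mice without a call (log2 0.14 ± 0.084 SE, adjusted p = 0.381), and at day 10 BM mice 2 and 3 lay above all WT mice and BM mouse 1 among them (log2 0.31 ± 0.19 SE, adjusted p = 0.225), and without mouse 1 *Psmb7* was called (log2 0.46 ± 0.12 SE, adjusted p = 0.00745).

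The immunoproteasome subunits were lower in BM at both days and, in part, higher in B at day 10. All 3 fell in BM at day 4 and at day 10, beside 24.7% and 22.3% of all genes that fell. In B 2 fell at day 4, beside 6.26% of all genes, and 2 rose at day 10, beside 13.1%. In bulk liver, fewer cells of a type and less RNA per cell cannot be told apart. At day 4 the RPFs of *Psmb8*, which replaces *Psmb5*, lay at 39.3, 42.1 and 42.8 CPM in WT, 25.7, 27.1 and 31.9 in B, 27.7, 39.2 and 20.3 in M and 17.2, 15.1 and 19.3 in BM. The B and BM mice were all well below the WT mice, and the M mice spread from the level of BM to just below that of WT. The fall was 2.36-fold in BM (log2 -1.24 ± 0.11 SE, adjusted p = 6.17e-06) and 1.48-fold in B (log2 -0.56 ± 0.10 SE, adjusted p = 0.00661). In M the difference was not called (log2 -0.47 ± 0.19 SE, adjusted p = 0.103). With library totals the changes in BM and B were -0.81 and -0.45 and remained called.

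At day 10 *Psmb8* lay at 34.5, 35.5 and 28.7 CPM in WT, 57.2, 61.5 and 39.3 in B, 20.0, 22.3 and 32.2 in M and 17.6, 7.53 and 8.01 in BM. All B mice were above and all BM mice below the WT mice. *Psmb8* rose 1.58-fold in B (log2 0.66 ± 0.16 SE, adjusted p = 0.025), a call lost without WT mouse 3, and fell 2.99-fold in BM (log2 -1.58 ± 0.33 SE, adjusted p = 0.0085). Without BM mouse 1 the fall was 4.26-fold (log2 -2.09 ± 0.16 SE, adjusted p = 1.67e-06). With library totals both were still called, at 0.91 and -1.19.

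*Psmb9*, which replaces *Psmb6*, lay at 20.7, 18.9 and 24.8 CPM in WT, 13.3, 17.9 and 20.4 in B, 18.8, 23.4 and 12.6 in M and 12.5, 11.6 and 11.8 in BM at day 4. It fell 1.76-fold in BM (log2 -0.82 ± 0.12 SE, adjusted p = 0.000298), where no mouse reached the WT range, and was not called in B or M (-0.33 and -0.19). At day 10 *Psmb9* lay at 19.5, 20.5 and 19.2 CPM in WT, 45.7, 50.0 and 27.7 in B, 12.9, 13.4 and 18.5 in M and 13.1, 5.67 and 5.87 in BM. It rose 2.06-fold in B (log2 1.04 ± 0.19 SE, adjusted p = 0.00754) and fell 2.41-fold in BM (log2 -1.27 ± 0.32 SE, adjusted p = 0.0186), or 3.44-fold without BM mouse 1. Again all B mice were above and all BM mice below the WT mice, and the M mice lay below WT without a call (log2 -0.41 ± 0.15 SE, adjusted p = 0.117). These 3 calls held with library totals, at -0.39, 1.296 and -0.88.

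*Psmb10*, which replaces *Psmb7*, lay at 32.9, 31.6 and 34.0 CPM in WT, 21.6, 24.3 and 28.6 in B, 27.7, 37.9 and 19.4 in M and 20.1, 19.0 and 22.2 in BM at day 4. The B and BM mice were all below the WT mice, with a fall in BM (log2 -0.66 ± 0.098 SE, adjusted p = 0.000276, or -0.23 and still called with library totals) and in B (log2 -0.42 ± 0.11 SE, adjusted p = 0.0466). The call in B was lost with library totals (-0.30) and without WT mouse 1 or 3 or B mouse 1 or 2. At day 10 *Psmb10* lay at 28.9, 27.9 and 30.5 CPM in WT, 33.0, 45.1 and 31.0 in B, 22.5, 25.7 and 32.6 in M and 26.5, 18.1 and 15.0 in BM. It was lower in BM (log2 -0.56 ± 0.22 SE, adjusted p = 0.0798), a call lost with library totals (-0.17) and without any WT mouse or BM mouse 2 or 3, while without BM mouse 1 it was -0.82. In B all 3 mice were above the WT mice, but the difference was not called (log2 0.31 ± 0.15 SE, adjusted p = 0.187).

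Set against the subunits they replace, the balance shifted in the same way. The RPFs of *Psmb8*, *Psmb9* and *Psmb10* per length of coding sequence, as a percentage of those of *Psmb5*, *Psmb6* and *Psmb7*, were 16.3, 18.2 and 20.6% in the WT mice of day 4, 10.5, 12.7 and 13.7% in B, 14.7, 20.9 and 11.2% in M and 9.60, 9.08 and 10.8% in BM. At day 10 they were 16.2, 18.9 and 17.2% in WT, 27.0, 33.3 and 20.4% in B, 12.0, 14.2 and 17.7% in M and 13.4, 6.03 and 5.36% in BM. This percentage does not depend on the scaling between libraries. BM and B lay below WT at day 4, whereas at day 10 B lay above WT and BM below it, with BM mouse 1 the highest of the 3. The percentage in RNA, from TPM, stood at 11.0 ± 2.18% for WT, 7.43 ± 0.438% for B, 9.50 ± 3.50% for M and 5.73 ± 0.184% for BM mice of day 4, where the B and BM mice were below and the M mice overlapped WT. At day 10 it was 10.7 ± 0.215%, 14.4 ± 2.44%, 9.21 ± 2.12% and 5.13 ± 2.75% in the same order (SD, n = 3), with B above, BM below and M overlapping WT.

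The RNA of these subunits moved with their RPFs in BM, and less clearly elsewhere. *Psmb8* RNA lay at 17.8, 18.0 and 23.3 CPM in WT and 7.25, 9.68 and 7.30 in BM at day 4 (log2 -1.28 ± 0.18 SE, adjusted p = 9.59e-05). At day 10 it lay at 20.9, 20.9 and 17.4 CPM in WT, 32.9, 32.5 and 18.6 in B and 10.1, 3.44 and 5.19 in BM (log2 -1.63 ± 0.33 SE, adjusted p = 0.00545). BM mice were below all WT mice at both days, and in B mouse 3 lay among the WT mice, without a call (log2 0.50 ± 0.21 SE, adjusted p = 0.171). *Psmb9* RNA fell in BM at day 4 (-1.26) and day 10 (-1.50) and rose in B at day 10 (1.21), and *Psmb10* RNA fell in BM at day 4 (-0.61). With library totals these RNA changes were -0.71, -1.09, 1.43 and -0.059, the last not called. *Psmb10* RNA in BM at day 10 was not called (log2 -0.69 ± 0.33 SE, adjusted p = 0.131). In B at day 4, where *Psmb8* and *Psmb10* fell in RPFs, their RNA was not called (-0.34 and -0.24), and in M at day 10 *Psmb8* RNA was called lower (log2 -0.66 ± 0.21 SE, adjusted p = 0.0668, or -0.47 and not called with library totals) while its RPFs were not. Without BM mouse 1 of day 10 the RNA changes of *Psmb8*, *Psmb9* and *Psmb10* in BM were -2.22, -2.23 and -1.23, all called.

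**Figure D3:**
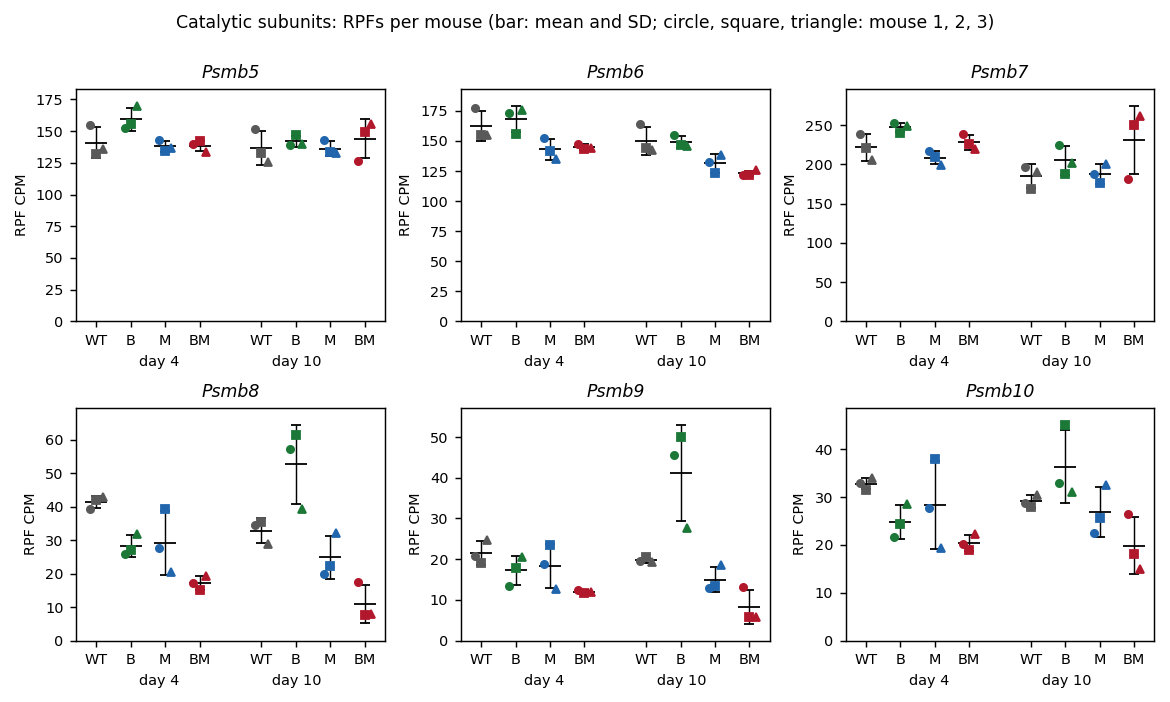
RPF CPM (TMM scaling, axes from 0) of the constitutive catalytic subunits Psmb5, Psmb6 and Psmb7 and of the immunoproteasome subunits Psmb8, Psmb9 and Psmb10 in each mouse. Circle, square and triangle are mice 1, 2 and 3 and bars the mean and SD of each group, and Psmb8 and Psmb9 of B at day 10 lie above WT while those of BM lie below WT at both days.

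In B at both days and in BM at day 4, other interferon-induced genes moved in the direction of the immunoproteasome. In M many of them fell where no immunoproteasome subunit was called in RPFs, and in BM at day 10 they were mixed. Of 22 interferon-response genes, 0 rose and 7 fell in B, 0 rose and 15 fell in M and 0 rose and 19 fell in BM at day 4, with medians of -0.50, -0.76 and -1.05, beside 6.26%, 14.7% and 24.7% of all genes that fell. The largest falls in BM were *Isg15* (-2.27), *Ifit1* (-2.26), *Xaf1* (-1.91) and *Rsad2* (-1.76), all antiviral effectors. At day 10, 20 rose and 0 fell in B with a median of 1.65, beside 13.1% of all genes that rose. In M 0 rose and 9 fell, beside 10.6% and 8.8%. In BM 5 rose and 9 fell, beside 24.5% and 22.3%, where the median was 0.029. Leaving out BM mouse 1 gave 5 that rose and 10 that fell, beside 33.4% and 32.9% of all genes, and turned the median to -0.28. With library totals 0 rose and 15 fell in BM at day 4 and 8 rose and 2 fell at day 10, and 22 rose and 0 fell in B at day 10. Their summed RPFs were 830.1 to 1067 CPM in WT, 1457 to 3249.7 in B and 735 to 1052 in BM at day 10.

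Genes of class I antigen presentation, which the immunoproteasome supplies with peptides, were lower in BM at both days. Of 12 such genes, 0 rose and 9 fell at day 4, beside 24.7% of all genes that fell, led by *B2m* (-1.004), *H2-D1* (-0.98), *H2-K1* (-0.95) and the peptide transporter subunit *Tap2* (-0.87). At day 10, 0 rose and 7 fell in BM, beside 22.3%, or 1 and 8 without BM mouse 1, beside 33.4% and 32.9%, and 2 rose and 1 fell in B. With library totals 3 rose and 5 fell in BM at day 4 and 1 rose and 3 fell at day 10, and the 4 genes named still fell. Their summed RPFs were 9335 to 9641 CPM in WT and 6315 to 6523 in BM at day 4, and 8087 to 9329 and 4753 to 5329 at day 10.

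Markers of immune cells, which also express these genes, moved in part with them. Of 7 macrophage and Kupffer cell markers 0 rose and 6 fell in BM at day 4, beside 26.2% and 24.7% of all genes, with a summed level of 688 to 803 CPM in WT and 402 to 427 in BM. At day 10 3 rose and 0 fell in BM, beside 24.5% and 22.3% of all genes, at 557 to 775 CPM in WT and 894 to 965 in BM. Leaving out BM mouse 1, the counts were 5 and 0, beside 33.4% and 32.9%. The summed markers of the BM mice were thus all above WT at day 10, where the immunoproteasome genes were lower. In B at day 10 1 rose and 0 fell, beside 13.1% and 12.1% of all genes, at 626 to 928 CPM, and of 4 leukocyte markers 2 rose and 0 fell. The 4 markers of antigen-presenting cells went the other way in B at day 10, where 0 rose and 4 fell, as in BM (0 rose and 4 fell). Summed T and NK cell markers lay at 1.56 to 2.60 CPM in WT and 0.733 to 2.12 in BM at day 4. At day 10 they lay at 2.86 to 3.36 CPM in WT, 2.52 to 4.70 in B and 4.12 to 9.24 in BM, where all BM mice were above WT and the B mice overlapped it. Summed B cell markers lay between 1.09 and 3.66 CPM in all groups. *Ccl5* was at 0 in B of day 4 and *Cd8a* at 0 in M of day 10. With library totals 0 rose and 3 fell among the macrophage markers in BM at day 4 and 5 rose and 0 fell at day 10. The part of these cells in the changes was not tested.

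Of the chaperones that assemble the 20S core, *Psmg1*, *Psmg2* and *Psmg3* were higher in mice with the MYC transgene at both days and *Psmg4* at day 4. *Psmg1* and *Psmg2*, which form a heterodimer that helps to assemble the alpha ring, were higher in M and in BM at both days, and these directions held with library totals. At day 4 the RPFs of *Psmg1* lay at 32.5, 30.7 and 28.9 CPM in WT, 30.6, 28.9 and 32.2 in B, 44.4, 45.1 and 48.9 in M and 46.7, 47.8 and 44.3 in BM. At day 10 *Psmg1* lay at 30.0, 30.4 and 29.1 CPM in WT, 33.9, 31.3 and 27.6 in B, 48.1, 47.1 and 47.8 in M and 43.4, 44.6 and 45.5 in BM. Every M and BM mouse was above every WT and B mouse at both days. The rise in M was 1.53-fold at day 4 (log2 0.62 ± 0.087 SE, adjusted p = 0.000819) and 1.60-fold at day 10 (log2 0.67 ± 0.086 SE, adjusted p = 0.00357). In BM it was 1.53-fold at day 4 (log2 0.61 ± 0.088 SE, adjusted p = 0.000204) and 1.48-fold at day 10 (log2 0.56 ± 0.13 SE, adjusted p = 0.0131), or 0.58 without BM mouse 1.

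*Psmg2*, the chaperone with the largest change in BM at day 4, lay at 12.7, 18.8 and 15.7 CPM in WT, 17.3, 19.5 and 18.3 in B, 25.5, 24.1 and 27.7 in M and 33.1, 27.1 and 23.8 in BM at day 4. At day 10 *Psmg2* lay at 17.6, 16.6 and 16.6 CPM in WT, 17.0, 19.5 and 18.6 in B, 28.3, 29.8 and 24.7 in M and 28.0, 32.0 and 33.5 in BM. Again every M and BM mouse was above every WT and B mouse. *Psmg2* rose 1.68-fold in M (log2 0.75 ± 0.14 SE, adjusted p = 0.0035) and 1.82-fold in BM (log2 0.86 ± 0.16 SE, adjusted p = 0.00106) at day 4, and 1.63-fold (log2 0.70 ± 0.11 SE, adjusted p = 0.00801) and 1.82-fold (log2 0.87 ± 0.15 SE, adjusted p = 0.00446, or 0.94 without BM mouse 1) at day 10. The RNA of *Psmg1* was higher as well, by 0.71 in M and 0.65 in BM at day 4, as was that of *Psmg2*, by 0.69 and 0.80, and all 4 were called. At day 10 the RNA of *Psmg1* was called higher in M but not called in BM, and that of *Psmg2* was called higher in both.

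*Psmg3* and *Psmg4*, the second chaperone pair of the alpha ring, were less abundant and less even. *Psmg3* lay at 7.63, 7.16 and 7.12 CPM in WT, 7.81, 7.46 and 7.91 in B, 9.13, 9.42 and 8.81 in M and 12.1, 11.2 and 10.1 in BM at day 4. At day 10 *Psmg3* lay at 7.52, 4.60 and 6.61 CPM in WT, 6.81, 5.44 and 7.37 in B, 8.35, 11.1 and 9.92 in M and 8.12, 12.9 and 18.2 in BM. M and BM mice were above all WT mice at both days, and the rise in BM was log2 0.63 ± 0.13 SE, adjusted p = 0.00281 at day 4 and log2 1.04 ± 0.33 SE, adjusted p = 0.0406 at day 10. In M it was log2 0.35 ± 0.13 SE, adjusted p = 0.0692 at day 4, a call lost without any one of the 6 mice and in DESeq2, and log2 0.64 ± 0.21 SE, adjusted p = 0.0816 at day 10, lost without WT mouse 2 or 3 or M mouse 1 or 2. The BM call of day 10 was lost without WT mouse 2 or 3 or BM mouse 3, and without BM mouse 1 the change was 1.296. *Psmg4* lay at 3.77, 4.01 and 3.16 CPM in WT, 3.59, 4.48 and 4.17 in B, 5.27, 5.52 and 5.81 in M and 6.29, 5.31 and 5.76 in BM at day 4 and rose in M (log2 0.63 ± 0.17 SE, adjusted p = 0.0233) and BM (log2 0.69 ± 0.18 SE, adjusted p = 0.00853). At day 10 *Psmg4* lay at 4.02, 4.71 and 4.93 CPM in WT, 6.37, 5.07 and 5.44 in B, 4.10, 4.03 and 5.23 in M and 6.09, 3.96 and 4.13 in BM, where all B mice were above the WT mice and those of M and BM overlapped them, and neither B (0.30), M (-0.029) nor BM (0.052) was called. The 4 rises of *Psmg3* and *Psmg4* at day 4 kept their direction with library totals.

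In B none of *Psmg1* to *Psmg4* was called in RPFs at either day by edgeR, with 0 at an unadjusted p under 0.05 and 0 called by DESeq2 at both days. Their changes ran from -0.02 to 0.22 at day 4 and from 0.037 to 0.30 at day 10. With library totals *Psmg1*, *Psmg2* and *Psmg4* of B at day 10 were called, at 0.30, 0.36 and 0.56.

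**Figure D4:**
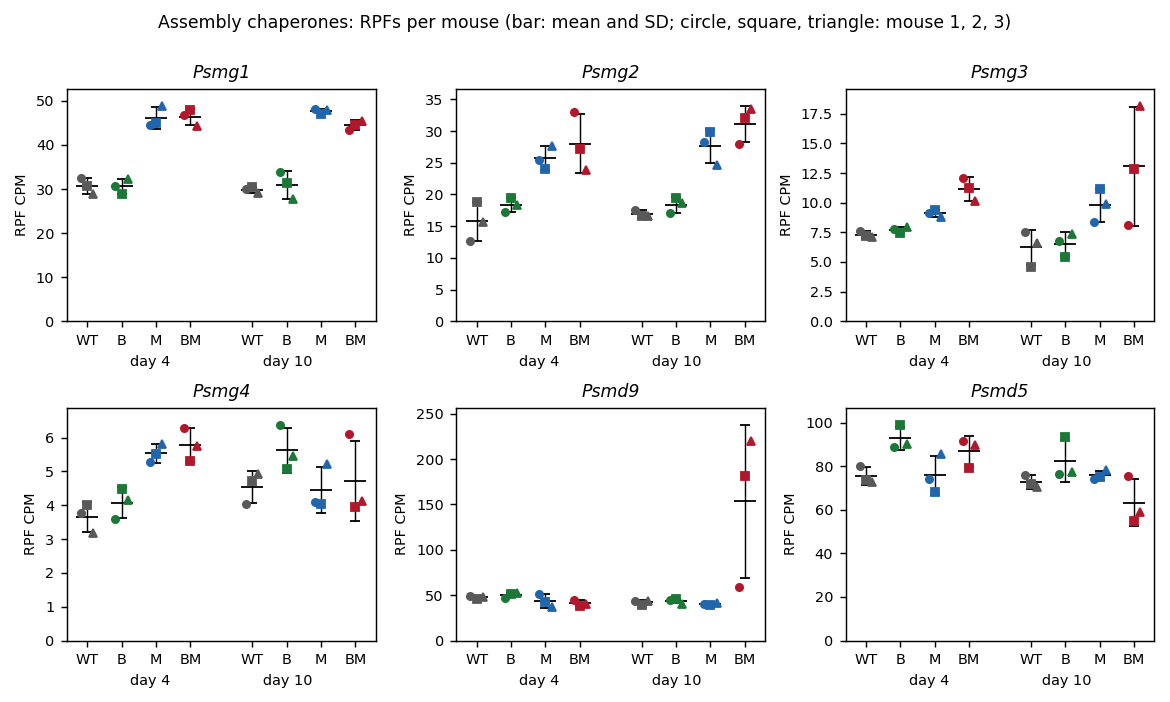
RPF CPM (TMM scaling, axes from 0) of the core chaperones Psmg1 to Psmg4 and the base chaperones Psmd9 and Psmd5 in each mouse. Circle, square and triangle are mice 1, 2 and 3 and bars the mean and SD of each group, M and BM mice lie above WT and B mice for Psmg1 and Psmg2 at both days, and Psmd9 is high in BM mice 2 and 3 at day 10 with 181 and 220.1 CPM.

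Among the chaperones of the 19S base, *Psmd9* had the largest change of all members in BM at day 10. Its RPFs lay at 48.6, 45.3 and 48.5 CPM in WT, 47.3, 51.0 and 52.1 in B, 51.7, 43.0 and 36.9 in M and 45.1, 38.5 and 40.7 in BM at day 4 and at 43.5, 39.5 and 44.1 CPM in WT, 44.6, 45.3 and 40.5 in B, 40.5, 39.6 and 41.8 in M and 58.7, 181 and 220.1 in BM at day 10. BM mice 2 and 3 of day 10 were far above every other mouse, and BM mouse 1 was above the WT mice by less. The difference was 3.58-fold (log2 1.84 ± 0.43 SE, adjusted p = 0.0131), and 4.70-fold without BM mouse 1 (log2 2.23 ± 0.13 SE, adjusted p = 2.11e-07). The RNA of *Psmd9* went from 24.4, 22.5 and 24.8 CPM in WT to 32.2, 76.4 and 85.2 in BM at day 10 (log2 1.42 ± 0.31 SE, adjusted p = 0.00812), with the same mouse lowest, or 1.74 without it. At day 4 *Psmd9* RPFs were not called in BM (-0.17), and its RNA was lower (log2 -0.39 ± 0.12 SE, adjusted p = 0.0243), or 0.16 with library totals.

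*Psmd5*, which binds ATPases of the base during assembly, lay at 80.2, 73.6 and 73.0 CPM in WT, 89.0, 98.9 and 90.4 in B and 91.9, 79.2 and 89.9 in BM at day 4. All B mice and BM mice 1 and 3 were above the WT mice. The differences were called in B (log2 0.28 ± 0.083 SE, adjusted p = 0.0654) and BM (log2 0.23 ± 0.085 SE, adjusted p = 0.0508), but not in DESeq2, and the first was lost without WT mouse 2 or 3 or B mouse 2 or 3 and the second without WT mouse 2 or 3 or BM mouse 1 or 3. *Psmd10*, or gankyrin, was not called against WT at either day in any genotype, with RPF changes from -0.13 to 0.12.

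The 17 subunits of the 19S regulatory particle moved by small amounts. Their RPF changes against WT ran from -0.42 to 0.46, and 17 of 102 fits were called, beside the same shares of all genes as for the core. In M at day 4, 4 fell and 0 rose, beside 14.7% and 18.5% of all genes, whereas with library totals 2 rose and 1 fell in M and 16 rose and 0 fell in BM at that day. *Psmd4*, a ubiquitin receptor of the base, lay at 206, 205 and 192 CPM in WT, 206, 214 and 226 in B, 152, 138 and 152 in M and 160.4, 151 and 164 in BM, so that M and BM mice were below all WT and B mice. The differences were log2 -0.42 ± 0.073 SE, adjusted p = 0.00263 in M and log2 -0.32 ± 0.074 SE, adjusted p = 0.00516 in BM, which with library totals became -0.20 in M, still called, and 0.11 in BM. At day 10 *Psmd4* lay at 188, 187 and 178 CPM in WT, 217, 202 and 176 in B, 142, 134 and 162 in M and 154, 136 and 136 in BM. M and BM mice were again below all others. It was called in M (log2 -0.34 ± 0.11 SE, adjusted p = 0.0747) and BM (log2 -0.39 ± 0.14 SE, adjusted p = 0.058), neither of which held with library totals (-0.094 and -0.013) or without any WT mouse or M mouse 1 or 2 for M and without any WT mouse or BM mouse 2 or 3 for BM. In BM it was -0.45 without BM mouse 1.

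The ATPases *Psmc2*, *Psmc5* and *Psmc4* fell in M at day 4. *Psmc2*, the ATPase with the largest change in BM at day 4, lay at 168, 152 and 159 CPM in WT, 158, 165 and 162 in B, 122, 121 and 122 in M and 152, 131 and 134 in BM. The M mice were all below the WT mice (log2 -0.36 ± 0.07 SE, adjusted p = 0.00456), and the BM mice lay at or below the lowest of them (log2 -0.18 ± 0.082 SE, adjusted p = 0.109). At day 10 *Psmc2* lay at 147, 159 and 151 CPM in WT, 145, 156 and 157 in B, 127, 132 and 125 in M and 100.2, 134 and 146 in BM, where M and BM mice were below the WT mice with no call (-0.25 and -0.28). *Psmc5* fell by 0.31 (adjusted p = 0.0108) and *Psmc4* by 0.23 (adjusted p = 0.0921) on the log2 scale. With library totals the 3 changes were -0.15, -0.094 and -0.016 and none was called, and the call of *Psmc4* was also lost without WT mouse 1 or 3 or M mouse 1 or 2.

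Other subunits of the base and lid were called in 1 or 2 comparisons. *Psmd1*, the scaffold of the base, lay at 252, 257 and 260.2 CPM in WT, 319.8, 348 and 304 in B, 252, 224 and 272 in M and 332, 300.1 and 301 in BM at day 4, with all B and BM mice above WT (B, log2 0.32 ± 0.081 SE, adjusted p = 0.0346, and BM, log2 0.30 ± 0.075 SE, adjusted p = 0.00718). The lid subunit *Psmd11* lay at 230.4, 238 and 222 CPM in WT and 277, 301 and 282 in B at day 4 (log2 0.30 ± 0.078 SE, adjusted p = 0.0373), and at 239, 215 and 253 CPM in WT and 181, 175 and 177 in BM at day 10 (log2 -0.42 ± 0.14 SE, adjusted p = 0.0498). Both B calls of day 4 were lost without WT mouse 1 or 3 or B mouse 2, and the BM call without WT mouse 1 or 3 or BM mouse 2 or 3 or with library totals (-0.044), while without BM mouse 1 it was -0.43. *Psmd14*, the lid enzyme that cuts ubiquitin chains off the substrate, lay at 96.6, 82.3 and 83.4 CPM in WT, 95.0, 106 and 107 in B, 86.1, 77.2 and 80.3 in M and 114, 92.4 and 92.2 in BM at day 4 without a call, and at 72.2, 81.1 and 88.2 CPM in WT, 99.3, 108 and 101 in B, 83.7, 90.3 and 82.5 in M and 72.1, 82.0 and 99.3 in BM at day 10. There all B mice were above the WT mice (log2 0.34 ± 0.11 SE, adjusted p = 0.0624), a call lost without WT mouse 1 or 2 or B mouse 2.

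In BM at day 10, 2 subunits of the particle rose and 3 fell, shares no larger than the 24.5% and 22.3% of all genes. *Psmd8*, a lid subunit, lay at 149, 149 and 155 CPM in WT, 195, 188 and 171 in B, 137, 126 and 150.3 in M and 197, 189 and 186 in BM, where every B and BM mouse was above WT (B, log2 0.27 ± 0.10 SE, adjusted p = 0.0913, and BM, log2 0.32 ± 0.13 SE, adjusted p = 0.0914). The ATPase *Psmc1* lay at 162, 176 and 175 CPM in WT and 178, 266 and 269 in BM (log2 0.46 ± 0.19 SE, adjusted p = 0.0953), and without BM mouse 1, the lowest, the change was 0.64. *Psmd2*, a ubiquitin receptor scaffold, fell from 369.9, 386 and 401 CPM in WT to 318, 289.7 and 314 in BM (log2 -0.34 ± 0.14 SE, adjusted p = 0.0967), which turned to 0.038 with library totals. The calls of *Psmd8* in B and of *Psmc1*, *Psmd2* and *Psmd8* in BM were each lost on leaving out any WT mouse, and also without B mouse 1 or 2 or, for the BM calls, BM mouse 2 or 3. *Psmd8* was at 0.30 and *Psmd2* at -0.36 without BM mouse 1, both called. *Psmd7*, a lid subunit, was called in BM at day 4 (log2 0.19 ± 0.083 SE, adjusted p = 0.0901), a call lost without WT mouse 2 or 3 or BM mouse 1 or 2.

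Of the activators and the inhibitor, 2 rose and 4 fell in BM at day 10, beside 24.5% and 22.3% of all genes. The inhibitor *Psmf1* lay at 50.2, 41.6 and 43.9 CPM in WT, 61.9, 59.3 and 53.4 in B, 47.4, 46.8 and 48.4 in M and 70.8, 92.3 and 82.95 in BM at day 10, with all B and BM mice above WT. It rose 1.80-fold in BM (log2 0.84 ± 0.16 SE, adjusted p = 0.00637) and 1.27-fold in B (log2 0.35 ± 0.11 SE, adjusted p = 0.0616), the latter lost without WT mouse 2 or 3 or B mouse 1 or 2 and in DESeq2. Without BM mouse 1 the change in BM was 0.94. Its RNA rose too, by 0.80 in B and 0.98 in BM, the latter with and without BM mouse 1. At day 4 *Psmf1* lay at 55.2, 56.3 and 53.5 CPM in WT, 47.5, 53.8 and 55.4 in B, 54.5, 50.2 and 50.2 in M and 60.0, 63.8 and 57.9 in BM and was not called.

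*Psme3*, the nuclear activator, lay at 47.7, 57.3 and 53.5 CPM in WT, 52.8, 52.5 and 43.6 in B, 52.7, 53.7 and 55.2 in M and 72.7, 59.1 and 63.2 in BM at day 4, with BM above all WT mice (log2 0.32 ± 0.10 SE, adjusted p = 0.0221). At day 10 *Psme3* lay at 42.8, 45.3 and 45.5 CPM in WT, 48.0, 49.3 and 49.7 in B, 68.2, 63.4 and 52.6 in M and 52.4, 80.3 and 88.6 in BM, where it rose in M (log2 0.46 ± 0.12 SE, adjusted p = 0.0403) and BM (log2 0.71 ± 0.21 SE, adjusted p = 0.0303, or 0.91 without BM mouse 1). The first of these calls was lost without WT mouse 1 or 3 or M mouse 1 or 2 and the second without WT mouse 1 or 3 or BM mouse 2. *Psme4*, the PA200 activator of nuclear proteasomes, changed direction between days. It lay at 174, 193 and 164 CPM in WT and 206, 201 and 202 in BM at day 4 (log2 0.22 ± 0.08 SE, adjusted p = 0.0452), where all BM mice were above WT, a call lost without WT mouse 1 or 3 or BM mouse 3. At day 10 it lay at 174, 169 and 187 CPM in WT and 137, 103 and 104 in BM (log2 -0.64 ± 0.16 SE, adjusted p = 0.0194), where all were below, or -0.78 without BM mouse 1. With library totals the day 10 change was -0.25 and not called.

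The PA28 genes fell in BM at day 10. *Psme1* lay at 154, 139 and 134 CPM in WT, 143, 153 and 123 in B, 135, 146 and 186 in M and 97.6, 106 and 97.2 in BM (log2 -0.52 ± 0.14 SE, adjusted p = 0.0234), with all BM mice below all others. Its partner *Psme2* lay at 20.6, 23.0 and 20.8 CPM in WT and 15.7, 9.86 and 9.09 in BM, and *Psme2b*, an intronless near copy, at 67.8, 71.8 and 63.7 and 48.9, 32.2 and 30.0. Reads of the pair are uncertain, since RPFs went mainly to *Psme2b* and RNA mainly to *Psme2*, with RNA at 34.4, 31.9 and 28.7 CPM for *Psme2* and 20.9, 18.8 and 16.7 for *Psme2b* in WT at day 10. Summed over both genes, RPFs fell at day 4 (log2 -0.23 ± 0.079 SE, adjusted p = 0.0339) and day 10 (log2 -0.89 ± 0.21 SE, adjusted p = 0.0134) in BM, and RNA at day 4 (log2 -0.25 ± 0.099 SE, adjusted p = 0.0686) with no call at day 10 (log2 -0.45 ± 0.20 SE, adjusted p = 0.103). With library totals *Psme2* and *Psme2b* were at 0.15 and 0.21 in BM at day 4, above WT and the second called, and at -0.51 and -0.50 at day 10, not called, as was *Psme1* at day 10 (-0.14). Without BM mouse 1 the TMM-scaled changes at day 10 were -0.50 for *Psme1*, -1.19 for *Psme2* and -1.13 for *Psme2b*.

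The members outside the common particle were scarce. *Psma8*, the testis form of an alpha subunit, lay at 1.29, 1.70 and 2.03 CPM in WT, 0.368, 1.03 and 1.02 in B, 1.32, 1.84 and 3.54 in M and 0.978, 3.41 and 1.98 in BM at day 4 and at 1.22, 0.614 and 0.841 CPM in WT, 0.889, 0.735 and 0.827 in B, 2.93, 2.93 and 1.92 in M and 2.79, 3.34 and 3.47 in BM at day 10, which corresponds to 4 to 52 fragments in a library. At day 4 the B mice lay below the WT mice and M and BM overlapped them, none of it called, with changes of -1.04 for B, 0.45 for M and 0.37 for BM. At day 10 all M and BM mice were above the WT and B mice, by 2.84-fold in M (log2 1.51 ± 0.33 SE, adjusted p = 0.0247) and 3.46-fold in BM (log2 1.79 ± 0.33 SE, adjusted p = 0.00532, or 1.88 without BM mouse 1), directions kept with library totals. With 14, 6 and 7 fragments in WT of day 10, it passed the count filter only through the M or BM mice, where it is high. The filter thus set these calls of *Psma8*. Reads of *Psma7*, its close relative, could reach it. *Psmb11*, the thymus subunit, had 1 RPF in all 24 libraries and 1 to 9 estimated RNA reads in each. *Psmc3ip*, a meiotic recombination gene named as a partner of *Psmc3*, had 2, 0 and 0 fragments in the WT mice of day 4 and 37, 16 and 18 in BM. The summed counts of 2 and 71, each over the summed TMM-scaled library sizes of its group, stood in a ratio of 21.2. This ratio only describes the counts, since it leaves out the spread between mice. The gene also passed the filter only through the BM mice, where it is high. The M mice had 3, 7 and 2 fragments. At day 10 it had 8, 2 and 0 fragments in BM. *Psme3ip1*, named as a partner of *Psme3*, was not called against WT in any comparison in RPFs.

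Comparing BM with M asks what the Ctnnb1ex3/+ allele adds where MYC is already expressed. At day 4, 12 of 50 members tested rose and 5 fell, beside 18.8% and 19.3% of all genes tested, and scaling to library totals gave 39 higher and 1 lower. The 17 calls fell to 8 without M mouse 2 and to 11 without BM mouse 1. In RNA, 4 rose and 3 fell beside 30.5%, or 23 and 1 with library totals. The 3 immunoproteasome subunits fell, with *Psmb8* at log2 -0.78 ± 0.21 SE, adjusted p = 0.0194, *Psmb9* at -0.63 and *Psmb10* at -0.49, where with library totals *Psmb9* (-0.42) and *Psmb10* (-0.28) were not called. The call of *Psmb9* was also lost without M mouse 2, and that of *Psmb10* without M mouse 1 or 2 or any BM mouse. Of the 19S regulatory particle, 7 of 17 subunits rose and 0 fell, namely *Psmc1*, *Psmc2*, *Psmc5*, *Psmd1*, *Psmd3*, *Psmd7* and *Psmd14*, with 0.33 for *Psmd7* and 0.30 for *Psmd1*, and 5 rose and 0 fell by DESeq2. The calls of *Psmc1*, *Psmc2*, *Psmd3* and *Psmd14* were lost without M mouse 2 and without at least 1 other of the 6 mice, while those of *Psmc5*, *Psmd1* and *Psmd7* were made without each of them. *Psme3*, *Psme4* and *Psmf1* rose by 0.25, 0.27 and 0.21 and *Psmg3* by 0.27, and the remaining rise was that of *Psmc3ip*, which the filter set. *Psme1* (-0.34) and *Psme2* (-0.32) fell, and neither call held with library totals, nor did that of *Psme1* without BM mouse 3. The calls of *Psme3*, *Psmf1* and *Psmg3* were lost without M mouse 2 and without at least 1 other mouse.

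At day 10 in BM against M, 4 of 49 members tested rose and 5 fell, beside 16% and 16.7% of all genes tested, and scaling to library totals gave 5 higher and 4 lower. In RNA, 4 rose and 3 fell beside 32.9%, or 10 and 0 with library totals. *Psmd9* led (log2 1.90 ± 0.44 SE, adjusted p = 0.0246), followed by *Psmb8* (log2 -1.18 ± 0.35 SE, adjusted p = 0.0501), *Psme2* (-0.97) and *Psme2b* (-0.85), with *Psmf1* at 0.77. The calls of *Psme2* and *Psme2b* were lost without BM mouse 2 and, for *Psme2*, M mouse 2. *Psmb9* was not called (log2 -0.87 ± 0.34 SE, adjusted p = 0.103). Leaving out BM mouse 1 raised the number of RPF calls from 9 to 25, where 30.5% of all genes rose and 28.6% fell. Leaving out M mouse 1 or 2 or BM mouse 2 or 3 gave as few as 2, so the count rests on which mice are used. The call of *Psmb8* was lost without any M mouse or BM mouse 2 or 3, and without BM mouse 1 *Psmb8* was at log2 -1.64 ± 0.23 SE, adjusted p = 0.00151.

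The change of a genotype effect between days was tested as an interaction over 12 mice. For B, from day 4 to day 10, 4 of 49 members tested rose and 0 fell, beside 8.39% and 8.83% of all genes tested, and scaling to library totals gave 7 higher and 0 lower. In RNA, 3 rose and 0 fell beside 9.31%, or 3 and 0 with library totals. The 4 members were the 3 immunoproteasome subunits and *Psmf1*, while *Psma8* was at 0.88 without a call. The effect of B on *Psmb8* rose by 1.23 (adjusted p = 0.00261), on *Psmb9* by 1.37 (adjusted p = 0.0074), on *Psmb10* by 0.73 (adjusted p = 0.0302) and on *Psmf1* by 0.44 (adjusted p = 0.0558). All 3 immunoproteasome calls held on leaving out each of the 12 mice, whereas that of *Psmf1* was lost for 7 of them. Of the 22 interferon-response genes, 21 rose and 0 fell in the same test.

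For M, 0 of 49 members tested rose and 0 fell, beside 0.633% and 0.546% of all genes tested, and scaling to library totals gave 0 higher and 0 lower. In RNA, 0 rose and 0 fell beside 1.2%. These counts of 0 from edgeR stood beside 2 members in RPFs and 1 in RNA at an unadjusted p under 0.05, and DESeq2 called 0 in each. The largest RPF values were those of *Psma8* (log2 1.06 ± 0.55 SE, adjusted p = 0.465) and *Psmg4* (log2 -0.65 ± 0.24 SE, adjusted p = 0.283), followed by 0.41 for *Psme3*, 0.30 for *Psmg3* and 0.25 for *Psme3ip1*.

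For BM, 4 of 50 members tested rose and 7 fell, beside 17.2% and 18.6% of all genes tested, and scaling to library totals gave 3 higher and 6 lower. In RNA, 4 rose and 3 fell beside 29.9%, or 2 and 7 with library totals. The effect of BM rose from day 4 to day 10 for *Psmd9* (log2 2.02 ± 0.47 SE, adjusted p = 0.00851), *Psma8* (1.42), *Psmf1* (0.69) and *Psmd8* (0.49). It fell for *Psme4* (log2 -0.84 ± 0.18 SE, adjusted p = 0.00469), *Psme2b* (-0.65), *Psme2* (-0.61), *Psmd11* (-0.46), *Psmd5* (-0.43) and *Psmd2* (-0.42), and the remaining fall was that of *Psmc3ip*, which passed the filter only through BM at day 4. Of these, *Psmd9*, *Psmf1*, *Psmd8*, *Psme4*, *Psmd11* and *Psmd2* were called on leaving out each of the 12 mice. Without BM mouse 1 of day 10, 14 members rose and 13 fell, beside 25.8% and 31.5% of all genes in that fit. Without WT mouse 3 of day 4 or BM mouse 2 of day 10, 3 rose and 4 fell.

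Translation efficiency (TE) was tested as the interaction of genotype with library type, the RPF change beyond the RNA change. No member was called by edgeR or by DESeq2 in any of the 11 comparisons. Of all genes tested, 0.0488% were called for B, 0.98% for M and 2.29% for BM at day 4, where 1, 1 and 4 members had an unadjusted p under 0.05. At day 10 the shares were 0.047%, 0% and 0.259%, with 2, 0 and 1 members. For BM against M they were 0.0943% at day 4 and 0.142% at day 10, with 1 and 1 members. Between days they were 0% for B, 0% for M and 0.31% for BM, with 0, 0 and 2 members. The shares are calls after adjustment and the member counts use an unadjusted p, so they cannot be set against each other. The share of all genes at an unadjusted p under 0.05 is not reported here.

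The 4 members with an unadjusted p under 0.05 in BM at day 4 all belong to the 19S particle, with TE changes of 0.34 for *Psmc5*, 0.31 for *Psmd6*, 0.27 for *Psmc1* and 0.27 for *Psmd3*. The lowest adjusted p was that of *Psmc5* (log2 0.34 ± 0.13 SE, adjusted p = 0.353). With the RPF library of a mouse paired with its RNA library in a block, *Psmc5* alone of the members was called in this comparison (log2 0.35 ± 0.11 SE, adjusted p = 0.0841), and in the 10 others none was. For the catalytic and immunoproteasome subunits TE changes against WT at day 4 in BM ran from -0.053 to 0.44, the latter for *Psmb9* (log2 0.44 ± 0.25 SE, adjusted p = 0.607). Without BM mouse 1 of day 10, 4 members were called in BM against WT at day 10, *Psmd9* (0.49), *Psmd13* (0.50), *Psma2* (0.51) and *Psmb7* (0.53), all higher. In that edgeR fit *Psmd9* had an unadjusted p of 0.0139 and an adjusted p of 0.0742, so many genes were called in it. Their share is not reported here, and the 4 members cannot be read as an excess.

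**Figure D5:**
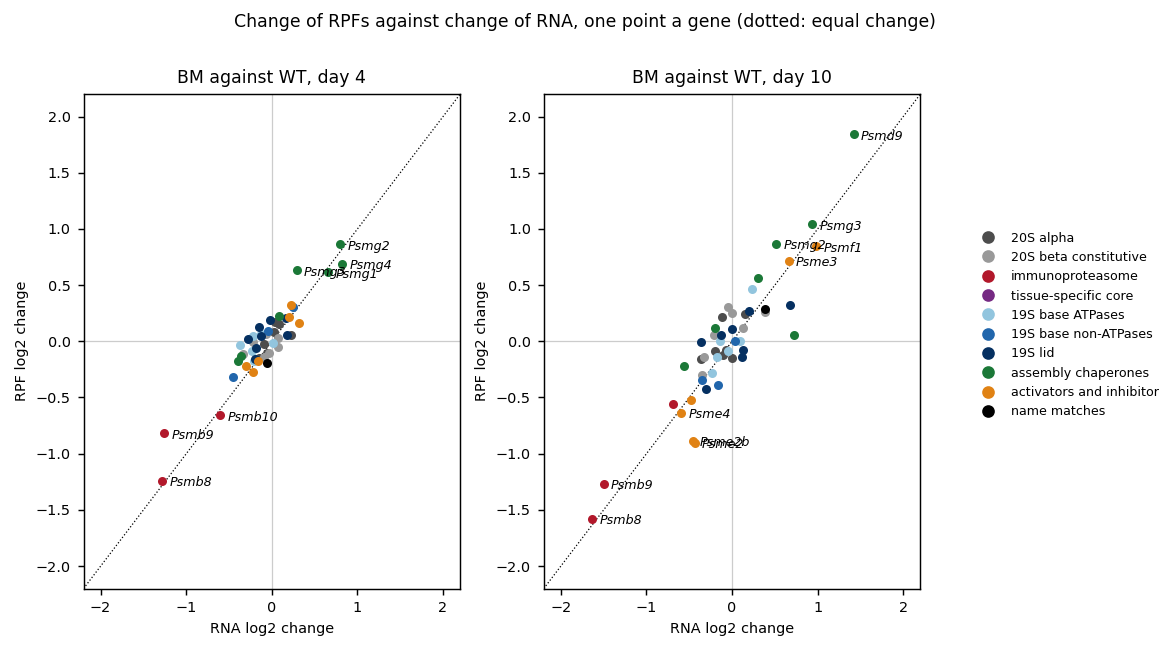
RPF change against RNA change (log2, TMM scaling) of each member in BM against WT at days 4 and 10, coloured by role, with a dotted diagonal of equal change. Psma8, Psmb11 and Psmc3ip, not tested in RNA, are not shown, most members of the core and the 19S particle lie near 0, and Psmb8, Psmb9 and, at day 10, Psmd9 (RPF 1.84, RNA 1.42) lie far out near the diagonal.

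Genes that work with the proteasome were read from lists of partners, transcriptional controllers and ubiquitin genes. Of 10 partner genes tested, 3 rose and 2 fell in M and 4 rose and 1 fell in BM at day 4, and 4 rose and 1 fell in BM at day 10. Of all genes, 18.5% rose and 14.7% fell in M and 26.2% and 24.7% in BM at day 4, and 24.5% and 22.3% in BM at day 10. *Uchl5*, a deubiquitinase bound to the 19S particle, was at 0.93 in BM at day 4, the scaffold *Ecpas* at 0.45, the ligase *Ube3c* at 0.39, and *Pomp*, which matures the beta rings, at -0.32. Of 5 genes of transcriptional control, 2 rose and 1 fell in BM at day 4, with *Ddi2*, the protease that activates *Nfe2l1*, at -0.80, *Nfe2l2* at 0.44 and *Nrf1* at 0.43. *Nfe2l1*, the main inducer of proteasome genes, was at 0.083 and not called, or 0.51 and called with library totals. Of 13 genes of ubiquitin and substrate delivery tested, 2 rose and 6 fell in M and 3 rose and 2 fell in BM at day 4, where the polyubiquitin gene *Ubb* (-0.53) fell and *Rps27a* (0.62), a ribosomal fusion of ubiquitin, rose. With library totals 9 rose and 0 fell of the partners, 4 rose and 1 fell of the controllers and 11 rose and 1 fell of the ubiquitin genes in BM at day 4, where *Pomp* turned to 0.11 and *Ubb* to -0.10, neither of them called.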

How the data were processed

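RPFs and cytoplasmic RNA were sequenced from the liver of 24 mice, 3 in each group, with 1 library of each kind per mouse. The authors trimmed reads with cutadapt 1.18, aligned RPFs and RNA to filtered GENCODE protein-coding transcripts of mouse (tools in the submitters' notes include Bowtie2 2.3.5.1, RSEM 1.3.3 and SAMtools 1.9) and removed duplicates by molecular identifiers. They deposited RPF counts per coding sequence, for 1 transcript per gene, the most abundant one, without its first and last codons. For RNA they deposited RSEM expected counts and TPM per isoform, which are estimates. Here expected counts were summed per gene and rounded, TPM was summed per gene, and transcripts without a line in an RPF table, 1689 to 3019 per library, were taken as 0. Symbols matched 20614 of 20622 gene identifiers.

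Group differences were tested with edgeR 4.0.16 (quasi-likelihood, R 4.3.3) on the libraries of the groups compared, with TMM factors within each library type, a count filter (filterByExpr, minimum count 10 and total 15), Benjamini-Hochberg adjustment over all genes and a threshold of 0.1. TE was the interaction of group and library type. The code was first tested on simulated data. The alternatives were RLE factors, no filter, DESeq2 1.42.0, all 24 mice in one fit, a replicate block (mouse number for RPFs and RNA, mouse for TE), RNA of the RPF isoform, and each mouse left out. Library totals without TMM factors, and *Psme2* and *Psme2b* summed, were chosen after seeing the data. CPM used library totals multiplied by the TMM factor.

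RPF and RNA libraries of a mouse come from 1 lysate, and their deviations from the group means over 7184 genes correlated in 24 of 24 mice at r over 0.1 (0.30 to 0.68). Mice with the same number in different groups are different animals (r from -0.22 to 0.27). Depth was 9742197 to 14380713 counts per RPF library (median 12503695) and 3254141 to 6540116 per RNA library, which sets the precision of scarce members such as *Psma8*.

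Members were chosen by symbol and the lists by textbook role, with earlier results of these data known. Named by rule were the catalytic and immunoproteasome subunits, the member of each role list with the largest RPF change in BM at day 4, members called in TE, the 5 members with the largest RPF change in each other comparison, and up to 4 called genes with the largest change of each list of other genes. Some genes of these lists are not reported by name here. Other members, and *Nfe2l1*, were named after their values were seen. RefSeq promoter sequences on GRCm38.p6 matched 43 of 51 members.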

Additional observations from a re-analysis of the deposited data

Results flagged for a closer look

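For the following members the difference between a genotype and WT itself differed between day 4 and day 10, by the interaction over 12 mice (edgeR, adjusted p under 0.1). Values are the log2 effect at day 10 minus that at day 4, with TMM scaling.

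In B the RPF effect rose for the immunoproteasome subunits *Psmb8* (1.23), *Psmb9* (1.37) and *Psmb10* (0.73) and for the inhibitor *Psmf1* (0.44). In RNA it rose for *Psmb8* (0.83), *Psmb9* (1.82) and *Psmf1* (0.78).

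In BM the RPF effect rose for the base chaperone *Psmd9* (2.02), the testis subunit *Psma8* (1.42), *Psmf1* (0.69) and the lid subunit *Psmd8* (0.49). It fell for the activator *Psme4* (-0.84), *Psme2b* (-0.65), *Psme2* (-0.61), *Psmd11* (-0.46), *Psmd5* (-0.43) and *Psmd2* (-0.42), while the value of *Psmc3ip* (-4.27) was set by the count filter, which it passed only through the BM mice of day 4. In RNA it rose for *Psmd9* (1.81), *Psmd8* (0.87), *Psmf1* (0.67) and the ATPase *Psmc1* (0.45) and fell for *Psme4* (-0.80), *Psmd5* (-0.66) and the alpha subunit *Psma1* (-0.60). BM mouse 1 of day 10, which stood apart from the other BM mice of that day, enters all BM values.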

How the results depend on the processing

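Scaling by library totals moved 13 of 33 counts of members called by over 1.5 times, and leaving out single mice moved others further. In RPFs it gave 12 calls for B, 16 for M and 47 for BM at day 4, against 5, 8 and 17 with TMM, and 37 in B and 16 in M at day 10, against 5 and 6. For BM against M at day 4 it gave 40 against 17, and for the B effect between days 7 against 4. In RNA it gave 12, 27 and 42 for B, M and BM at day 4, against 0, 8 and 14, 24 in B and 27 in BM at day 10, against 4 and 17, and 24 against 7 for BM against M at day 4. Of 174 calls of single members, 19 changed sign under this scaling and 35 more were lost. The RNA changes that turned positive in M at day 4 were those of *Psmd11* (0.12), *Psmd6* (0.048), *Psmc2* (0.0048) and *Psmc4* (0.13). In BM at day 4 they were RPFs of *Psmd4* (0.11), *Psme2b* (0.21) and *Psme2* (0.15) and RNA of *Psmd4* (0.096), *Psmc5* (0.18), *Psmd6* (0.27), *Psmd9* (0.16), *Psmc4* (0.32) and *Psmb3* (0.21). In BM at day 10 they were RPFs of *Psmd2* (0.038) and RNA of *Psmd2* (0.052), *Psmb6* (0.046), *Psmd13* (0.041), *Psma1* (0.032) and *Psmb3* (0.077).

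With all 24 mice in one fit, RPF calls were 2 in B and 10 in BM at day 4, 9 and 18 for BM against M at days 4 and 10, and 18 for the BM effect between days, against 5, 17, 17, 9 and 11. RNA calls were 5 in M at day 4, 10 in B at day 10, and 4 and 15 for BM against M, against 8, 4, 7 and 7. DESeq2 called 3 in B at day 10 in RPFs, and in RNA 2 in M and 11 in BM at day 10 and 1 for the B effect between days, against 5, 6, 17 and 3. RNA of the RPF isoform gave 1 call in B and 5 in M at day 4, against 0 and 8, and no filter on low counts gave 11 RNA calls for BM against M at day 10, against 7. The replicate block used the mouse number for RPFs and RNA, which pairs different animals arbitrarily, and the mouse itself for TE. It gave 11 RNA calls for BM against M at day 4, against 7, and 1 TE call, of *Psmc5* in BM at day 4, against 0, and moved no other count by over 1.5 times. RLE factors and the sum of *Psme2* and *Psme2b* moved none of 33 counts.

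Leaving out each mouse in turn gave RPF calls of 1 to 4 for B, 6 to 9 for M and 13 to 17 for BM at day 4, and 2 to 6, 3 to 8 and 11 to 28 at day 10. For BM against M they were 8 to 14 at day 4 and 2 to 25 at day 10, and for the effects between days 3 to 6 in B, 0 to 1 in M and 7 to 27 in BM. RNA calls were 0 to 2, 4 to 7 and 11 to 16 at day 4, 2 to 7, 1 to 6 and 9 to 24 at day 10, 2 to 10 and 3 to 16 for BM against M, and 1 to 4 in B, 0 in M and 7 to 15 in BM between days. TE calls were 0 to 4 in BM at day 10, 0 to 3 for BM against M at day 10 and 0 to 1 for the BM effect between days. Of the 174 calls, 87 were made without each mouse and 87 were lost without at least 1. Except for scaling and for fits with fewer mice, the cause of these differences was not tested.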
